A study of Mus musculus with 11 samples.

Results

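Disease-associated microglia (DAM) were read as nuclei within the microglia of P301S tau transgenic mice. A nucleus counted as microglial when it had 300 to 8000 genes, at most 5% mitochondrial UMIs, at least 3 of Inpp5d, Ly86, Siglech, Selplg, Ikzf1, Runx1, Dock8 and P2ry12 detected, and no more than 1 UMI of the neuronal gene Slc17a7. A UMI is a molecular tag, so that each count stands for 1 captured RNA molecule. A microglial nucleus was then called a DAM nucleus when its UMIs of Axl, Itgax, Csf1, Myo1e, Lpl and Gpnmb, here called the gate genes, summed to 3 or more. In the 7 P301S+ mice, 398 of 3789 microglial nuclei were DAM nuclei, 2355 had 0 of these UMIs and served as the comparison (gate-negative nuclei), and 1036 had 1 or 2 and entered neither side. The 11 libraries of the study held 114118 barcodes in all, 7500 to 12315 each, with 72007219 to 93205362 UMIs, and 14 to 44 barcodes were shared by each pair of libraries, of which 4 were microglial over all pairs. The DAM nuclei were chosen by measured values, so the levels of the gate genes and of the microglial genes are given below as a description only.

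Cortical nuclei of 11 mice were sequenced (female per the labels, while the study's methods name male mice for RNA-seq), 1 library per mouse, to ask how microglial NF-κB signalling shapes the response to tau. P301S mice (ikbkb+/+;P301S+, n = 3, 9.15, 10.03 and 10.75 months old) carried human tau with the P301S mutation under the prion promoter. Knockout P301S mice (ikbkb-/-;P301S+, n = 2, 8.39 and 9.15 months) were P301S mice in which a tamoxifen-dependent Cre recombinase inserted in Cx3cr1 removed a floxed part of Ikbkb, the gene for the NF-κB-activating kinase IKKβ. Active IKKβ P301S mice (ikbkbCA;P301S+, n = 2, 9.8 and 10.85 months) expressed a constitutively active IKKβ after the same recombination. Non-transgenic mice (ikbkb+/+, n = 4, 9.8 to 10.85 months) served as the background. P301S and non-transgenic mice carried the floxed alleles without Cre, and all mice received tamoxifen. The knockout and active mice thus also had the Cre insertion and 1 working Cx3cr1 allele, and its effect and that of the kinase cannot be told apart. P301S mice 1 and 2 came from the floxed Ikbkb line and P301S mouse 3 from the active IKKβ line. Cre under Cx3cr1 also acts in border-associated macrophages.

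Microglia are the resident macrophages of the brain. In their resting state they express homeostatic genes such as Tmem119, P2ry12 and Cx3cr1, maintained by TGF-β signalling and transcription factors such as Sall1 and Maf. Near plaques, dying neurons or tau deposits they lower these genes and raise the DAM program, which depends on the lipid receptor TREM2 and includes genes of lipid handling, lysosomes, adhesion and growth factors (Apoe, Lpl, Cd9, Ctsb, Itgax, Csf1). Nuclei hold mostly newly made and partly unspliced RNA, so that a nuclear level is not the level of the whole cell.

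Nuclei past the gate were found in every P301S+ mouse, 5 to 131 of them. The 5 of knockout mouse 2 had 0 UMIs of Itgax, Lpl and Gpnmb and 80% of their gate UMIs from Myo1e, so that they are DAM nuclei by the rule alone. P301S mouse 1 had 10 DAM nuclei of 298 microglial nuclei (3.36%, exact 95% binomial interval 1.62 to 6.08), mouse 2 had 30 of 386 (7.77%, 5.30 to 10.9) and mouse 3 had 131 of 825 (15.9%, 13.4 to 18.6). Knockout P301S mouse 1 had 69 of 644 (10.7%, 8.43 to 13.4) and mouse 2 had 5 of 214 (2.34%, 0.763 to 5.37). Active IKKβ P301S mouse 1 had 63 of 754 (8.36%, 6.48 to 10.6) and mouse 2 had 90 of 668 (13.5%, 11 to 16.3). The interval of P301S mouse 3 lay above those of the other P301S mice, a gap beyond counting error, which is all that these intervals cover. Mouse 3 was of the active IKKβ line and the oldest of the 3, and mice 1 and 2 were of the floxed Ikbkb line. Line, age and spread between mice cannot be told apart here. In the 4 non-transgenic mice 20 of 1259 microglial nuclei passed the same gate, between 1.05 and 2.22% in a mouse, below the value of every P301S+ mouse at this gate. The gate genes were already known to be raised in P301S mice of these data, so this order was in part fixed by the gate and was not tested. The interval of knockout mouse 2 (0.763 to 5.37) also overlapped that of non-transgenic mouse 2 (0.898 to 4.52). With doublets left out knockout mouse 2 was at 1.59%, under the highest non-transgenic mouse (1.78%), and at a gate of 5 UMIs knockout mouse 2 (0.467%) and P301S mouse 1 (0.671%) were under it (0.952%).

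**Figure D1:**
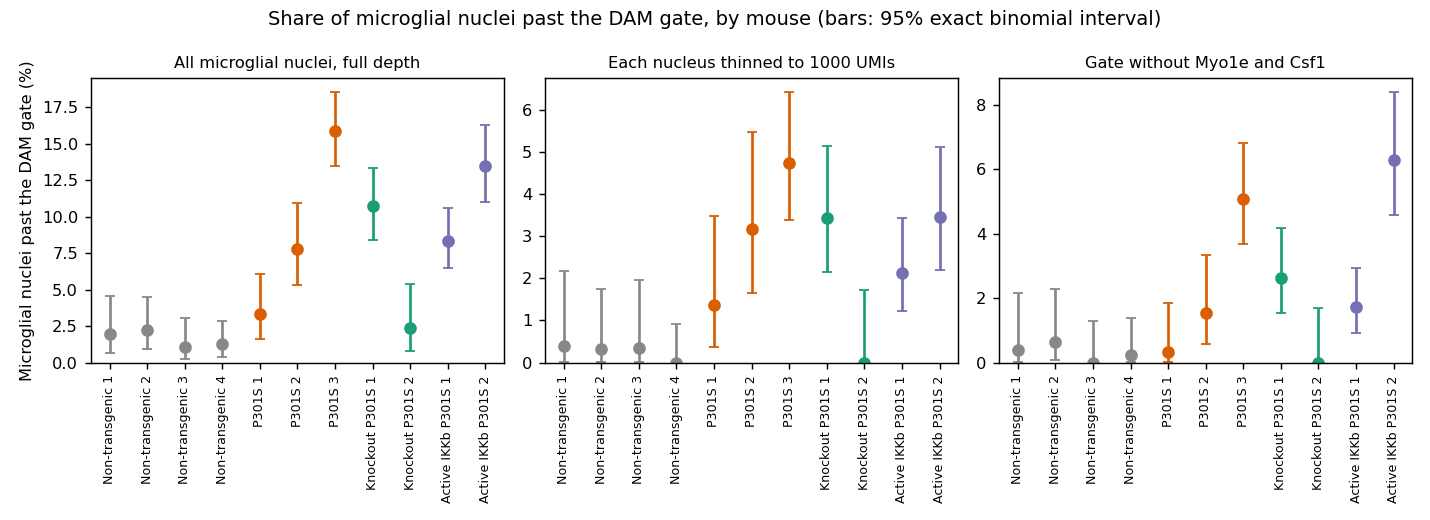
Percent of microglial nuclei past the DAM gate, 1 point per mouse with its exact 95% binomial interval, for the full nuclei, for nuclei thinned to 1000 UMIs and for a gate without Myo1e and Csf1 (linear axes that differ between panels). At full depth the 4 non-transgenic mice sat between 1.05 and 2.22%, the P301S mice between 3.36 and 15.9%, and the knockout and active IKKβ P301S mice lay within the range of the P301S mice except for knockout mouse 2 at 2.34%.

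The DAM share did not separate the P301S+ genotypes. It averaged 9.0 ± 6.35% over the 3 P301S mice (SD), 6.53 ± 5.92% over the 2 knockout mice and 10.9 ± 3.62% over the 2 active mice. The knockout mean minus the P301S mean was -2.48 percentage points (exact two-sided permutation p = 0.7), and the active mean minus the P301S mean was 1.91 points (p = 0.8 by the same exact test). Both contrasts share the 3 P301S mice, and with 3 mice against 2 the smallest p that the test can give is 0.1. The knockout mice were of the line of P301S mice 1 and 2, and the active mice of the line of mouse 3, so genotype and line overlap in both. The knockout difference turned to 0.96 without P301S mouse 3 and to 1.71 without knockout mouse 2, and the active difference to -0.91 without P301S mouse 1 and to -0.65 without active mouse 2.

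The DAM share moved with the depth of the nuclei. DAM nuclei had a median of 2780 UMIs and gate-negative nuclei 2126, and a deeper nucleus passes a limit of 3 UMIs more readily. When each nucleus was thinned to 1000 UMIs, the share was 1.38, 3.17 and 4.74% in P301S mice 1 to 3, 3.43 and 0% in the knockout mice, and 2.12 and 3.45% in the active IKKβ mice, against 0 to 0.395% in non-transgenic mice. Knockout mouse 2 had 0 of 211 thinned nuclei past the gate, with an exact upper bound of 1.73%. The order of the mice stayed the same within the P301S, knockout and active groups, and the active difference turned to -0.31 points.

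Each gate gene has a known place in the DAM program. Axl is a receptor kinase for phosphatidylserine-coated debris, Itgax the integrin subunit CD11c, Csf1 the microglial growth factor, Myo1e a class I myosin at the membrane cytoskeleton, Lpl a lipase and Gpnmb a transmembrane glycoprotein of stressed lysosomes. Myo1e (chromosome 9, 70207350 to 70399766) gave 1249 of the gate UMIs in the DAM nuclei, 52.3% of them, and was detected in 84.7% of the nuclei. Axl was detected in 47.2%, Csf1 in 34.2%, Itgax in 30.4%, Lpl in 25.1% and Gpnmb in 8.54%. Without Myo1e, 234 of the 398 DAM nuclei (58.8%) would not have passed.

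Few DAM nuclei showed the whole gate. A single gate gene was detected in 91 nuclei (22.9%), 2 genes in 156 (39.2%), 3 in 110, 4 in 24, 5 in 15 and all 6 in 2. The summed gate UMIs were exactly 3 in 149 nuclei (37.4%) and at least 10 in 59, with a median of 4 and a maximum of 46. The pair seen together most often was Axl with Myo1e, in 152 nuclei, followed by Csf1 with Myo1e in 102 and Itgax with Myo1e in 91.

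The make-up of the gate differed from mouse to mouse. Itgax was detected in 0, 26.7 and 26.7% of the DAM nuclei of P301S mice 1 to 3, in 18.8 and 0% in the knockout mice and in 28.6 and 52.2% in the active IKKβ mice. Gpnmb was detected in 20% of the DAM nuclei of active mouse 2, where its 138 UMIs were 22.6% of all gate UMIs, and in 0 to 10.0% in the other mice. Lpl was highest in P301S mouse 2 (53.3%) and knockout mouse 1 (39.1%), and at 0% in P301S mouse 1 and knockout mouse 2, which had only 10 and 5 DAM nuclei. Axl lay between 16.7 and 57.8% and was highest in both active mice (50.8 and 57.8%).

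Myo1e and Csf1 were not specific to microglia in this tissue. Oligodendrocyte nuclei, 578 to 1583 in a mouse at a median of 2141.5 to 3220 UMIs, had Myo1e in 33.1 to 46.0% of nuclei and Csf1 in 15.4 to 26.5%, against 9.06 to 29.8% and 1.90 to 9.82% of microglial nuclei. Axl, Itgax and Lpl were found in at most 1.01, 0.142 and 1.18% of oligodendrocyte nuclei. By the gate alone 7.96 to 15.3% of oligodendrocyte nuclei would have passed, above the shares of the non-transgenic microglial nuclei. P301S mice 1 and 2 and knockout mouse 2 were under that range too, P301S mouse 3 was above it, and the others were within it. Thinned to 1000 UMIs, 0.418 to 1.88% of oligodendrocyte nuclei passed, and the microglial nuclei of all P301S+ mice but P301S mouse 1 and knockout mouse 2 were above that range. With Myo1e and Csf1 left out of the gate, 0 to 0.141% of oligodendrocyte nuclei passed. Of the microglial nuclei, 0.336, 1.55 and 5.09% then passed in P301S mice 1 to 3, 2.64 and 0% in the knockout mice, 1.72 and 6.29% in the active IKKβ mice and 0 to 0.635% in non-transgenic mice. On that gate the knockout difference was -1.01 points (exact permutation p = 0.8) and the active difference 1.68 (exact permutation p = 0.5), and P301S mouse 1 and knockout mouse 2 lay within the range of the non-transgenic mice.

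**Figure D2:**
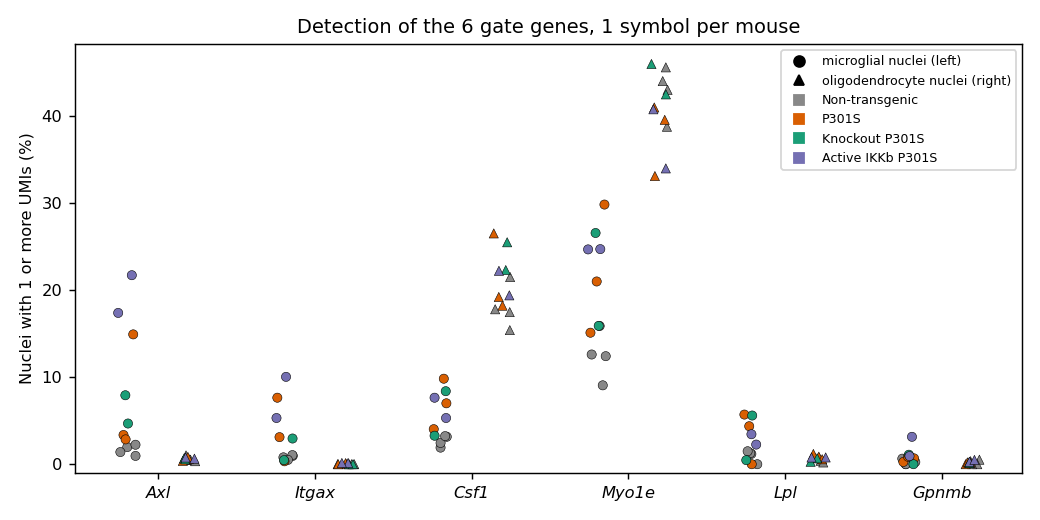
Percent of nuclei with at least 1 UMI of each gate gene, 1 symbol per mouse colored by genotype, with circles for microglial and triangles for oligodendrocyte nuclei. Myo1e and Csf1 were detected in more oligodendrocyte nuclei (33.1 to 46.0% and 15.4 to 26.5%) than microglial nuclei (9.06 to 29.8% and 1.90 to 9.82%), whereas Axl reached 21.7% of microglial and at most 1.01% of oligodendrocyte nuclei.

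Other cell types were measured in the DAM nuclei with marker lists. At least 5 UMIs of 12 oligodendrocyte genes were found in 55 DAM nuclei (13.8%), in 82 gate-negative nuclei (3.48%) and in 9 of the 20 non-transgenic nuclei past the gate (45.0%). The summed oligodendrocyte level was 231 to 5938 CPM (counts of a gene scaled to a total of 1e6 for the summed nuclei of a mouse) in DAM nuclei and 502 to 832 in gate-negative nuclei, higher in DAM nuclei in 6 of the 7 mice. Without the nuclei with 5 or more such UMIs it was 170 to 395 in DAM nuclei and 250 to 465 in gate-negative nuclei. That filter counts the same 12 genes, so the fall of their level is fixed in part by it. A doublet caller marked 80 DAM nuclei (20.1%) and 264 gate-negative nuclei (11.2%), and these were kept, since the rule does not remove them. Of 12 markers of border-associated macrophages 6 had 0 UMIs in all DAM nuclei (Cd163, Pf4, Lyve1, Cbr2, Cd209f and Clec10a), as did 8 of 12 monocyte and neutrophil markers and 14 of 18 lymphocyte markers. Of the other border macrophage markers Colec12 had the most, 269 UMIs, 233 of them in the active mice, and 19.1% of DAM nuclei had 2 or more UMIs of that list, against 12.2% of gate-negative nuclei. Without these nuclei the DAM nuclei of the active mice went from 63 to 43 and from 90 to 56. Those of P301S mouse 3 went from 131 to 119 and those of knockout mouse 1 from 69 to 61. P301S mouse 1 went from 10 to 8, while P301S mouse 2 stayed at 30 and knockout mouse 2 at 5.

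The microglial identity was checked with genes that no gate used. Csf1r, the receptor for the growth factor CSF1, stood at 201, 475 and 579 CPM in DAM nuclei of P301S mice 1 to 3, at 397 and 212 in the knockout mice and at 505 and 432 in the active IKKβ mice. C1qa, of the complement protein C1q, lay between 38.5 and 179 CPM, from 2 UMIs each in P301S mouse 1 and knockout mouse 2, too few to be told from stray RNA, and from 12 to 83 in the other mice. Knockout mouse 2 stood apart, since its 5 DAM nuclei had 1 UMI of Cx3cr1 in all and the highest level of 18 excitatory neuron markers (28572 CPM, against 9348 to 16953 in the other mice). P301S mouse 1 stood apart in part, with 70.3% of its gate UMIs from Myo1e, the lowest Csf1r (5 UMIs) and the highest levels of the oligodendrocyte genes Mbp, St18 and Prr5l. Other microglial genes went the other way there. C1qb, also of C1q, was the highest of the P301S+ mice in its DAM nuclei, at 401 CPM from 10 UMIs against 77.1 to 258. Cx3cr1 stood at 361 CPM from 9 UMIs, within the range of the other mice. Ikbkb was still counted in the knockout, at 75.4 and 96.3 CPM in DAM nuclei against 116 to 160 in P301S mice and 127 and 132 in active IKKβ mice. These DAM values rest on 4 to 57 UMIs a mouse, and in gate-negative nuclei the genotypes overlapped, at 89.5 and 109 CPM in knockout mice and 99.6 to 105 in P301S mice. Counts run over the whole gene, so that a deleted part cannot be read from them.

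Transcripts that define DAM in cell-based studies were rare in these nuclei. Cst7, a cysteine protease inhibitor, had 0, 4 and 10 UMIs in the DAM nuclei of P301S mice 1 to 3, 3 and 0 in the knockout mice and 7 and 10 in the active mice. Spp1 (osteopontin) had between 1 and 9 UMIs in a mouse, and Lgals3 (galectin-3) had 0 to 21 in 5 mice, 15 in active mouse 1 and 38 in active mouse 2. In gate-negative nuclei, whose sums were larger in every mouse, Cst7 had 0 to 3 UMIs, Spp1 0 to 2 and Lgals3 0 to 4. In P301S mouse 3 Cst7 stood at 21.5 CPM in DAM and 0.843 in gate-negative nuclei, and Lgals3 at 45.2 and 3.37, as a description. Trem2 itself, the receptor on which the program depends, was not called between DAM and gate-negative nuclei, at 120 ± 37.2 and 127 ± 26.9 CPM (SD, n = 7 mice each, log2 fold change -0.05 ± 0.16 (SE), edgeR quasi-likelihood adjusted p = 0.986). In these Trem2 values, which unlike the others of this paragraph are scaled by the TMM factors explained below, it was higher in DAM nuclei in 3 of 7 mice. Unscaled it was higher in P301S mouse 1 too (80.2 against 64.6 CPM, from 2 UMIs in DAM nuclei). A p that misses the threshold does not show equal levels.

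DAM nuclei differed from gate-negative nuclei of the same mice far beyond the gate. UMIs were summed per mouse over each state and tested with edgeR, paired by mouse, with the gate and microglial genes left out of totals and tests. Of 7030 genes tested, 389 (5.53%) were called at an adjusted p under 0.05, 200 higher in DAM nuclei (2.84%) and 189 lower (2.69%). The CPM values in the following paragraphs come from this fit and are scaled by TMM factors, which correct for the make-up of each sum. DESeq2 called 393 genes, of which 359 were the same, and with doublets left out 526 genes of 5308 tested were called, 214 of them among the 389. Matched on depth, where the 2 states of a mouse had nuclei of like UMI counts, 152 genes were called, of which 110 were among the 389. Matching also left only as many gate-negative as DAM nuclei in each mouse, for example 131 instead of 449 in P301S mouse 3. Wherever a call was lost with depth matching, depth and the smaller number of nuclei cannot be told apart.

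Apoe, the gene of apolipoprotein E and a DAM gene outside the gate, was higher in DAM nuclei of every mouse. In gate-negative nuclei it stood at 204, 229 and 374 CPM in P301S mice 1 to 3, at 208 and 86.3 in the knockout mice and at 79.9 and 240 in the active IKKβ mice. In DAM nuclei the values were 821, 696 and 1092, 716 and 542, and 305 and 518 CPM in the same order. The lowest level in DAM nuclei, in active mouse 1, was within the range of the gate-negative nuclei, while the other 6 were above it. The log2 fold change was 1.73 ± 0.16 (SE, adjusted p = 5.38e-06 by edgeR). Apoe lies on chromosome 7, from 19696109 to 19699188, on the minus strand (GRCm38).

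The largest rise of the named genes was that of Fam20c. This gene, which encodes a kinase that phosphorylates secreted proteins in the Golgi, went from 7.90, 27.3 and 50.8 CPM to 71.4, 122 and 181 in P301S mice 1 to 3. It went from 30 and 16.8 to 122 and 21.7 CPM in the knockout mice and from 21.6 and 16.5 to 142 and 320 in the active mice. All 7 mice moved up, the least in knockout mouse 2, whose DAM value was 1 UMI, and the log2 fold change (2.55 ± 0.27 SE, adjusted p = 2.18e-05 in edgeR) was the largest of the named genes. March3, a membrane-bound ubiquitin ligase, stood at 74.7 ± 35.0 CPM in gate-negative and 412 ± 315 in DAM nuclei (SD, n = 7; log2 fold change 2.35 ± 0.20, edgeR adjusted p = 1.68e-06). Its DAM level was 250, 940 and 653 in P301S mice, 587 and 130 in knockout mice, and only 158 and 169 in the active IKKβ mice. Rai14, an actin-binding protein, rose from 39.1 ± 14.7 to 145 ± 79.5 CPM (1.97 ± 0.19, edgeR adjusted p = 5.88e-06).

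Further named genes rose in all 7 mice, which the rule for naming them required. The DAM values of Rai14 and Sh3pxd2b in knockout mouse 2 (21.7 CPM) rested on 1 UMI each. So did those of Fgr, Bcar3 and Olfr111 in P301S mouse 1 (35.7 CPM). Sh3pxd2b (TKS4), a scaffold of podosomes, rose from 17.8 ± 5.48 to 72.9 ± 41.5 CPM, and Bcar3, an adaptor of the adhesion protein p130Cas, from 18.6 ± 11.2 to 58.8 ± 36.9. Fgr, a Src family kinase of myeloid cells, stood at 7.90 to 49.0 CPM in gate-negative nuclei of P301S mice, at 5.62 and 4.21 in knockout mice and at 118 and 126 in active mice. In DAM nuclei Fgr was at 35.7 to 195 in P301S mice, 104 and 43.3 in knockout mice and 240 and 307 in active mice. Its state difference (log2 1.78 ± 0.27, edgeR adjusted p = 0.000479) thus sat on different starting levels in the genotypes. Olfr111, a member of the olfactory receptor family whose reads can be shared between near copies, is uncertain and stood at 17.6 ± 11.1 and 58.9 ± 29.4 CPM.

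The bases upstream of the start site are shown for 3 of the 4 genes with the largest rises, to set side by side the promoters of genes that were higher in the same nuclei. They are the 250 bases before the RefSeq start (GRCm38.p6), 5′ to 3′ on the gene's strand, with CG dinucleotides in capitals.
Fam20c, chr5:138754831-138755080, plus strand: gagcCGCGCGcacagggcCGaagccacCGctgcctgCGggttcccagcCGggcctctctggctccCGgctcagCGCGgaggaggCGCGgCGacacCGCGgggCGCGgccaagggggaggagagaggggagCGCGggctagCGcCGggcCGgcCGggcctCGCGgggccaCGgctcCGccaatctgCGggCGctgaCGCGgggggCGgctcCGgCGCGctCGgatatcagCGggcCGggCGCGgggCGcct
Sh3pxd2b, chr11:32347590-32347839, plus strand: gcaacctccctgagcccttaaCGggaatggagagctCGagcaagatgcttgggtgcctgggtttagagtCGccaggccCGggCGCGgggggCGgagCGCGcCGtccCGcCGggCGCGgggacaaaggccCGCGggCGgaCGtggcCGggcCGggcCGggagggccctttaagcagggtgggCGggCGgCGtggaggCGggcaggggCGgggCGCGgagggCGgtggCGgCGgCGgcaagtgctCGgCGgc
Olfr111, chr17:37529707-37529956, plus strand: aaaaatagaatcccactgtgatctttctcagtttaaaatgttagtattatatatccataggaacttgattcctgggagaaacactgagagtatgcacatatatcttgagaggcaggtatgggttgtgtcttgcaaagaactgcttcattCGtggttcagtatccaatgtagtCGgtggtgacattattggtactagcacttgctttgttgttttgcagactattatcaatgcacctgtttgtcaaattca
The first pair were of the CpG island kind, with 81.2% GC and 41 CG dinucleotides for Fam20c and 77.6% and 34 for Sh3pxd2b. Olfr111 had 37.6% and 2. Over 32851 RefSeq promoters the medians were 52.4% GC and 6 CG dinucleotides (quartiles 2 and 16). The Olfr111 start in RefSeq lies 21927 bases from that of the GENCODE annotation the counts refer to, and that of Fam20c 567 bases, so that both windows lie inside the GENCODE gene. None (0) of the 3 windows held, on either strand, the NF-κB consensus (GGGA, any 2 bases, TTCC, found in 1.21% of all such windows), GAGGAAG of PU.1 (10.6%), TCACGTG of the lysosomal E-box (3.13%) or TGANTCA of AP-1 (6.75%). That says only that these letters were absent from these windows.

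The remaining rises included genes of oligodendrocytes. Mobp, a myelin protein, rose from 32.4 ± 9.01 to 132 ± 81.7 CPM (log2 1.88 ± 0.22, edgeR adjusted p = 3.96e-05), and 7 of the 8 oligodendrocyte markers tested were called higher, at a median log2 fold change of 1.40 against -0.02 over all genes tested. Plekhh1, Sec14l5, Ttyh2, Btbd11 and Gm37168 rose in all 7 mice too, by 1.74, 1.47, 1.81, 1.68 and 1.76 on the log2 scale. In the DAM nuclei of knockout mouse 2 Plekhh1 and Ttyh2 rested on 1 UMI each. With depth matching Mobp, Plekhh1, Sec14l5 and Btbd11 were not called (0.74, 0.80, 0.61 and 1.25). When nuclei with 5 or more oligodendrocyte UMIs were left out, Mobp, Plekhh1, Sec14l5 and Bcar3 were no longer measured well enough to test, and Mbp, which encodes myelin basic protein and was called higher at 1.32, stood at -0.0397. Mobp and Mbp are among the genes that this filter counts, so their change is fixed in part by it. Without the nuclei with 5 or more oligodendrocyte UMIs 269 genes were called, 221 of them among the 389.

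**Figure D3:**
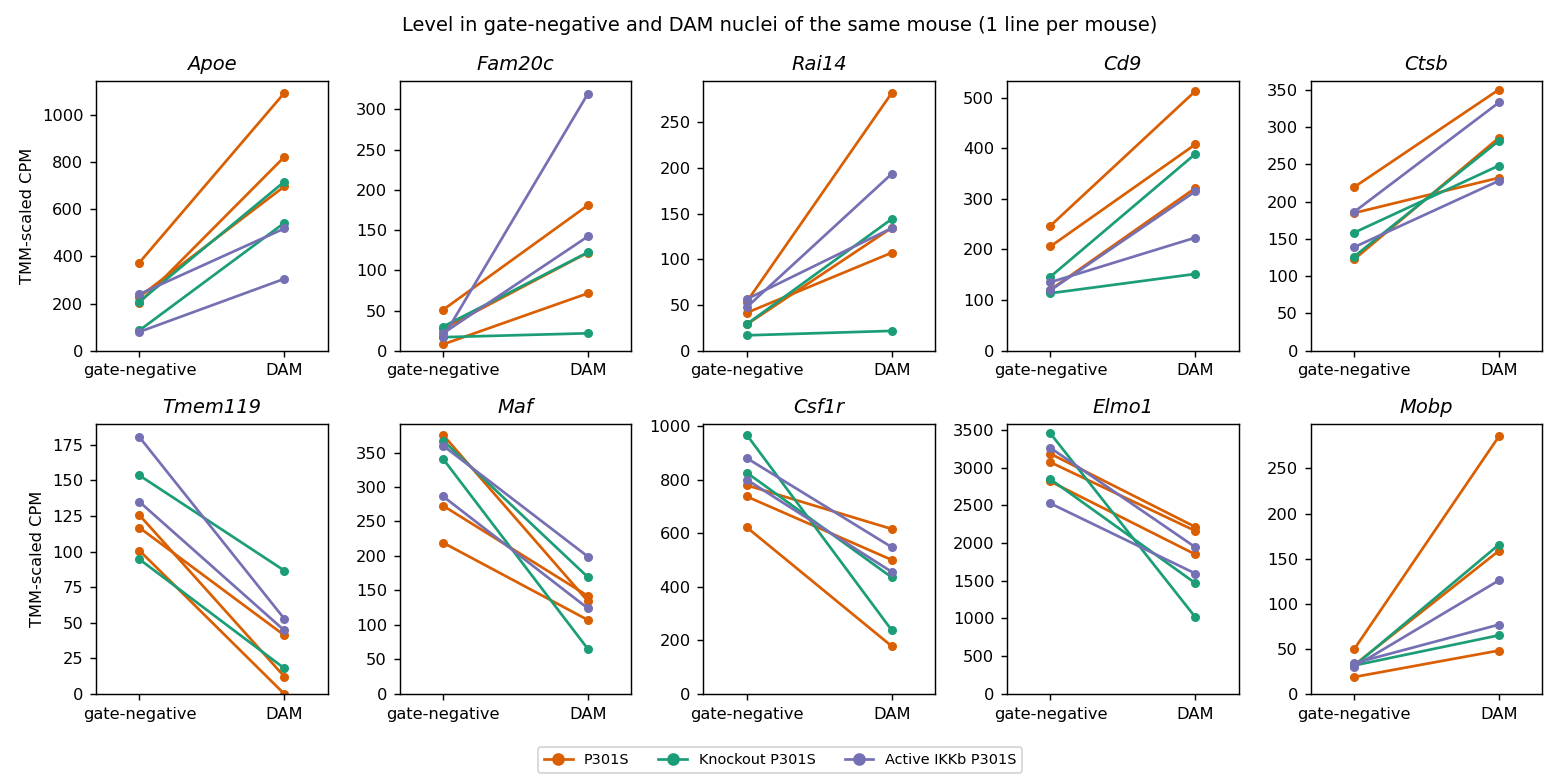
TMM-scaled CPM (linear axes from 0) of 10 genes in gate-negative and DAM nuclei of the 7 P301S+ mice, with a line joining the sums of each mouse, colored by genotype. Apoe and Fam20c rose in all 7 mice and Tmem119 and Maf were lower in all 7, with log2 fold changes of 1.73, 2.55, -1.76 and -1.15, and Mobp was higher in all 7 as well.

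The called genes of the DAM list beyond the gate were all higher in DAM nuclei. Of 40 listed genes 39 were found, 20 were expressed enough to test, 10 rose, 0 fell and 10 were not called, at a median log2 fold change of 0.63 against -0.02 over all genes. Beside Apoe these were the lysosomal proteases Ctsb (0.74 ± 0.14, edgeR adjusted p = 0.00247) and Ctsz (0.61 ± 0.14), the tetraspanin Cd9 (155 ± 51.1 to 332 ± 120 CPM), the pyrophosphate transporter Ank (229 ± 48.5 to 602 ± 325), the sulfatase Sulf2, the hypoxia factor Hif1a, the lysozyme gene Lyz2, the growth factor Igf1 and Cd83. The call of Ctsz was lost in 3 of 21 settings, among them the absence of P301S mouse 3 or knockout mouse 1. That of Sulf2 was lost in 1 of 19, with depth matching. Lyz2 has a near copy, Lyz1, so its reads may be split, and it was higher in DAM nuclei in 5 of 7 mice. The adhesion molecule Cadm1 did not pass (0.35 ± 0.16, edgeR adjusted p = 0.273), and neither did Gusb, a lysosomal glucuronidase (0.20 ± 0.17). With doublets left out Cadm1 passed, at 0.68.

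Ank and Cd9 show how the mice compared. Ank stood at 158 to 279 CPM in gate-negative nuclei of all mice, and at 964, 1050 and 705 in DAM nuclei of the P301S mice, 608 and 368 in the knockout mice, and 292 and 226 in the active mice. The 3 P301S mice were thus the highest and the active mice the lowest. Cd9 in DAM nuclei was at 321, 513 and 408 in P301S mice, 389 and 152 in knockout mice and 223 and 315 in active mice, with the genotypes overlapping.

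Homeostatic genes moved the other way. Of 27 tested, 14 fell and 0 rose, at a median log2 fold change of -0.80. Tmem119, a membrane protein specific to microglia (chromosome 5, 113793729 to 113800516), stood at 101, 126 and 117 CPM in gate-negative nuclei of P301S mice, 94.6 and 154 in knockout mice and 180 and 135 in active mice. In DAM nuclei it was at 0, 12.2 and 41.2, at 18 and 86.7, and at 52.8 and 44.6 CPM. No DAM value reached the lowest gate-negative value, and the log2 fold change was -1.76 ± 0.22 (SE, edgeR adjusted p = 6.39e-05). The DAM values rested on 0, 1 and 18 UMIs in P301S mice, 5 and 4 in knockout mice and 13 and 18 in active mice. In P301S mouse 1, 3 UMIs would have been 120 CPM, above its gate-negative level, so the 0 there says little. Slc2a5, the fructose transporter GLUT5, fell from 88.6 ± 25.4 to 22.1 ± 13.2 CPM, and Ltc4s, leukotriene C4 synthase, from 67.7 ± 9.45 to 19.9 ± 10.3.

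Regulators and receptors of the homeostatic state fell as well. The transcription factor Maf went from 317 ± 58.9 to 134 ± 43.0 CPM (log2 -1.15 ± 0.16, edgeR adjusted p = 0.000234), with every DAM value (65.0 to 199) under every gate-negative value (219 to 376). Sall1, the microglial identity factor, fell by 0.80 on the log2 scale (edgeR adjusted p = 0.0152), the fractalkine receptor Cx3cr1 by 0.81 (0.0293, likewise adjusted) and Csf1r by 0.86 (0.00505). With depth matching Sall1 and Csf1r were not called, nor in the setting that also left out doublets, border macrophages and oligodendrocyte transcripts, where they stood at -0.53 and -0.33. The neuron navigator Nav3 (-0.36, edgeR adjusted p = 0.245), the receptor Tgfbr1 (-0.14) and the factor Mef2c (-0.21) did not pass.

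The deepest fall of the called genes was that of Mrc1. The mannose receptor Mrc1 (CD206), which marks border-associated macrophages, stood at 43.5 to 133 CPM in gate-negative nuclei and at 0 in 3 of the 7 DAM sums, with 36.0 as the highest value (log2 -2.37 ± 0.30, edgeR adjusted p = 0.000115). In DAM nuclei of P301S mouse 1 and knockout mouse 2, 3 UMIs would have been 120 and 57.8 CPM, above their gate-negative levels of Mrc1, so the 0 of these mice says little. At a gate of 2 UMIs the call of Mrc1 was just lost (edgeR adjusted p = 0.0505). Stab1, a scavenger receptor of the same cells, fell from 183 ± 54.5 to 81.1 ± 56.2 CPM. Nuclei with 2 or more UMIs of border macrophage markers were 76 of the DAM nuclei and 287 of the gate-negative nuclei, and without these nuclei Stab1 still was lower, at -0.89 on the log2 scale (edgeR adjusted p = 0.0253), while Mrc1 could not be tested. The non-coding 8030442B05Rik fell from 384 ± 76.1 to 108 ± 44.0 CPM, the B cell scaffold gene Bank1 from 200 ± 69.6 to 62.8 ± 55.7, and Myo18b, Sv2c and Tspan18 had log2 fold changes of -1.79, -1.47 and -1.46, all lower in 7 of 7 mice, as was BC035044.

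**Figure D4:**
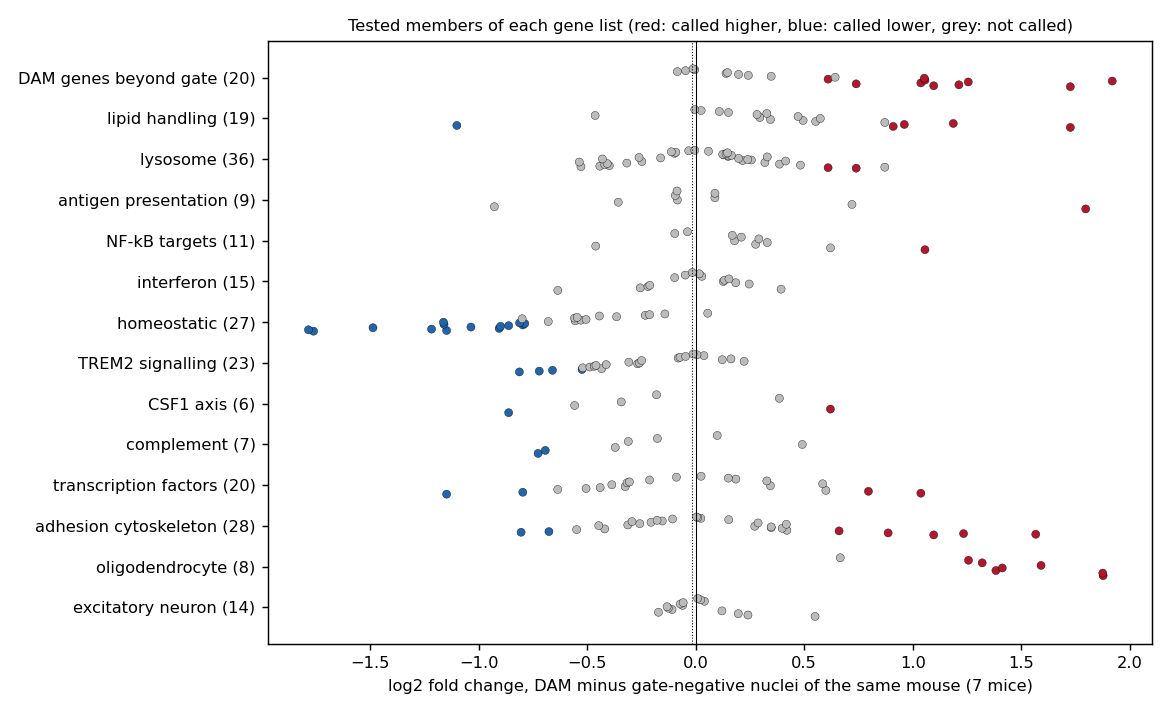
Log2 fold change between DAM and gate-negative nuclei (x axis) for the tested genes of each list, 1 point per gene, red where called higher, blue where called lower and grey where not called, with the number tested in brackets and a dotted line at the median of all genes (-0.02). The called genes of the DAM list (10 of 20) lay on the right and those of the homeostatic list (14 of 27) on the left.

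In the lipid handling list 4 of 19 genes tested rose and 1 fell, at a median of 0.34. All list counts here stand beside 5.53% of all genes called. Acaca, the rate-limiting enzyme of fatty acid synthesis, rose from 153 ± 22.2 to 289 ± 61.4 CPM (0.91 ± 0.13, edgeR adjusted p = 0.000318), and Scd2, a fatty acid desaturase, from 48.9 ± 9.01 to 104 ± 46.8. The call of Scd2 was lost in 6 of the 20 settings that could test it, among them depth matching, with a log2 value as low as 0.33. The transporter Abca9 fell from 379 ± 93.1 to 169 ± 80.7 CPM. Abca1, the cholesterol exporter (0.11 ± 0.16, edgeR adjusted p = 0.836), and the ApoE receptor Lrp1 (0.02 ± 0.13) did not pass.

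In the lysosomal list only Ctsb and Ctsz of 36 tested were called, 5.56% against 5.53% of all genes, and the median was 0.13 against -0.02. In the adhesion and cytoskeleton list 5 of 28 rose and 2 fell. The fibronectin receptor subunit Itga5 rose from 26.8 ± 5.90 to 71.8 ± 39.8 CPM, the filopodial motor Myo10 by 1.57 and the Rac regulator Arhgap24 by 0.89 on the log2 scale, together with Myo5a and Cd9. Myo10 was higher in 5 of 7 mice, at 146 and 231 CPM in DAM nuclei of the active mice and 0 to 75.6 in the others. The call of Arhgap24 was lost in 1 of 21 settings, with border macrophages left out. Elmo1, which activates Rac with Dock proteins, fell from 3024 ± 314 to 1751 ± 423 CPM (-0.81 ± 0.17, edgeR adjusted p = 0.00636), as did the laminin receptor subunit Itga6, whose call was lost in 8 of 21 settings, among them depth matching and the absence of knockout mouse 1 or either active mouse.

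The TREM2 signalling list held 4 falls and 0 rises among 23 tested genes (median -0.27). These were the inhibitory receptor Cd33 (156 ± 28.3 to 83.6 ± 34.6 CPM, -0.81 ± 0.16, edgeR adjusted p = 0.00371), the calcium channel Itpr2 and the PI3 kinase subunits Pik3cd and Pik3cg. Cd33 opposes TREM2 signals, while the other 3 act downstream of such receptors. With depth matching none (0) of the 4 was called, and the call was lost in 3 of 21 settings for Cd33, 11 of 21 for Itpr2, 13 of 21 for Pik3cd and 11 of 20 for Pik3cg. In the CSF1 axis 1 of 6 rose (Csf2ra, the GM-CSF receptor, 0.62) and 1 fell (Csf1r). The call of Csf2ra was lost in 11 of 20 settings, among them depth matching and a gate of 2 UMIs.

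The immune effector lists were short. Called were 11.1% of antigen presentation and 28.6% of complement genes tested, against 5.53% of all genes. Of 15 interferon response genes tested 0 were called, with a median of 0.02. The antigen presentation list had 1 rise among 9, that of Cd74, the MHC class II invariant chain, from 10.6 ± 8.65 to 40.7 ± 31.6 CPM (1.80 ± 0.38, edgeR adjusted p = 0.00648), while B2m (-0.08) and Cd86 (-0.09) did not pass. Of 7 complement genes 2 fell, among them C1qa (-0.73 ± 0.17, edgeR adjusted p = 0.0144), whose call was lost in 7 of 21 settings, among them depth matching, doublets left out and the absence of either active mouse. C1qb (-0.31) and C1qc (-0.37) did not pass. Among 20 transcription factors Hif1a (1.04) and Runx2 (0.80) rose and Maf and Sall1 fell. The call of Runx2 was lost in 6 of 20 settings, among them leaving out knockout mouse 1 or active mouse 1, and it stood at 0.0307 on a gate without Myo1e. Mitf, a regulator of lysosome and lipid genes, was just beyond the threshold (0.60 ± 0.18, edgeR adjusted p = 0.0524), and was called in 9 of 21 other settings, among them depth matching and DESeq2. Of the markers of other brain cells, 0 of 14 excitatory neuron, 0 of 5 inhibitory neuron, 0 of 5 astrocyte and 0 of 4 oligodendrocyte precursor genes tested were called, at medians of -0.02, 0.05, 0.47 and 0.30. Erbb4 (edgeR adjusted p = 0.0516), Adarb2 and Ptprz1 were called in 6 other settings each, Gpc5 and Lhfpl3 in 2, and Meg3, Kcnip4 and Slc1a2 in 1.

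NF-κB targets, the readout nearest to the question of the study, rose in 1 case. Of 44 listed genes 11 could be tested, and Cd83, a membrane protein induced by NF-κB, rose from 46.8 ± 27.2 to 121 ± 54.4 CPM (1.06 ± 0.23, edgeR adjusted p = 0.00636). Nfkb1 (0.18 ± 0.16), Traf3 (0.28) and Tnfrsf1b (-0.46) did not pass, and the median was 0.21. In other settings Nfkb1 was called higher in 2 of 21, among them doublets left out, and Tnfrsf1b lower in 2 of 21. The share called was 9.09%, against 5.53% of all genes. Cd83 is also on the DAM list. The summed level of the 44 genes was 783 to 1311 CPM in gate-negative nuclei of P301S mice, 872 and 1061 in knockout mice and 2011 and 2043 in active mice. In DAM nuclei it was 1205 to 2086 in P301S mice, 1453 and 694 in knockout mice and 2188 and 2360 in active mice. The active mice were thus the highest of the P301S+ mice in both states, and by a wider margin in gate-negative nuclei.

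Levels of genes outside the gate were compared over the number of gate UMIs. In P301S mouse 3, which had the most DAM nuclei, Apoe stood at 353, 729, 922 and 1151 CPM in nuclei with 0, 1 to 2, 3 to 4 and 5 or more gate UMIs, and Tmem119 at 110, 62.7, 47.9 and 28.1. In active mouse 2 Apoe was at 224, 305, 461 and 522 and Fam20c at 15.4, 56.5, 107 and 503 in the same bins. Apoe was at 206, 302, 515 and 760 CPM in P301S mouse 2 and at 75.9, 105, 186 and 589 in active mouse 1, rising from bin to bin, and at 189, 261, 697 and 630 in knockout mouse 1, where the last bin was lower. Fam20c was at 24.6, 57.7, 28.6 and 175 in P301S mouse 2 and at 27.3, 28.7, 38.7 and 149 in knockout mouse 1. The DAM list beyond the gate stood at 2297, 2311, 2421 and 7332 CPM in active mouse 1, so it was near flat below 5 UMIs. In the other mice with these bins it was at 2409 to 3389 with 0 UMIs and 3481 to 5748 with 3 to 4. The oligodendrocyte list was higher with 3 to 4 than with 0 UMIs in each of these mice, at 1902 and 624 CPM in active mouse 1. Nuclei just outside the gate, with exactly 2 UMIs (300 nuclei), are set beside those just inside it, with 3 (149 nuclei). Apoe was at 399 and 474 CPM, Fam20c at 57.9 and 57.4, Maf at 221 and 171, Tmem119 at 73.8 and 47.8, March3 at 128 and 163 and the DAM list at 3198 and 3355.

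The same comparison was made within non-transgenic mice. In the 20 nuclei past the gate, 57 of 4967 tested genes (1.15%) were called, 43 higher and 14 lower, and all 8 oligodendrocyte markers tested were among the higher, at a median log2 fold change of 2.69. Of 13 DAM genes beyond the gate 0 were called and their median was -0.31, against -0.21 over all genes of this comparison. For Apoe the log2 value was -1.55 ± 0.69 (adjusted p = 0.319 in edgeR) and March3 at -0.59 ± 0.72, and of 26 homeostatic genes Fcrls fell. The median of the homeostatic list was -1.19, lower than the -0.80 of the P301S+ mice. Those of the TREM2 signalling, CSF1 axis and complement lists were -0.95, -0.91 and -1.61, with 0 genes called. They too were lower than in P301S+ mice (-0.27, -0.26 and -0.31), so falls of these lists were not particular to DAM nuclei of P301S+ mice. No gene (0 of those tested) passed when nuclei with 5 or more oligodendrocyte UMIs were left out, with 409 at an unadjusted p under 0.05 by edgeR. That left 4, 5, 1 and 1 nuclei past the gate in non-transgenic mice 1 to 4, too few to read the lack of calls. The difference between P301S+ and non-transgenic mice was not tested.

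Between the genotypes, DAM nuclei of knockout and P301S mice gave no called gene. Of 6531 genes 0 (0.0%) passed in edgeR and 0 in DESeq2, with 382 and 233 at an unadjusted p under 0.05. Apoe differed by -0.47 ± 0.38 on the log2 scale, Fam20c by -0.61 ± 0.51, March3 by -0.68 ± 0.47 and Cd83 by -0.72 ± 0.42. Ikbkb differed by -0.55 ± 0.42 (edgeR adjusted p = 0.934). The DAM list had a median of -0.42 and the homeostatic list of -0.24, against -0.01 over all genes, and the excitatory neuron list of 0.87. Without knockout mouse 1, which leaves only the 5 nuclei of knockout mouse 2 on that side and assumes that they vary like the other mice, 159 genes were called, and without knockout mouse 2 only 1.

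In active IKKβ P301S mice, 6 of 6531 genes (0.0919%) were called against P301S mice, all higher in DAM nuclei, with 251 at an unadjusted p under 0.05. The counts pooled over mice show their size, with intervals that cover counting error only and not the spread between mice. Ttn, the giant muscle protein titin (chromosome 2, 76703980 to 76982547), had 2 UMIs in the DAM nuclei of the 3 P301S mice and 206 in those of the 2 active mice, a ratio of 85.6 after scaling to the totals (counting interval 23.4 to 711). It stood at 116 CPM in active mouse 1 and 411 in active mouse 2, and without active mouse 2 it was not called, with the log2 fold change at 4.92 instead of 6.10. Aoah, an enzyme that inactivates lipopolysaccharide, had 17 and 157 UMIs (7.67, 4.64 to 13.5), and the chemokine receptor Ccr9 had 1 and 53 (44.0, 7.57 to 1771). Cp, the iron-oxidising ceruloplasmin, had 0 and 50 UMIs, so that it was at least 13.8-fold higher against a floor of 3 counts over the group. Cntnap5c and the scavenger receptor Colec12 had ratios of 6.13 and 5.87, and all 33 P301S UMIs of Colec12 came from mouse 3. The edgeR adjusted p was 0.000389 for Ttn, 0.00476 for Aoah, 0.0209 for Cp and 0.032 for Ccr9. With breeding line as a covariate only 1 gene was called, and Aoah, Cp and Ccr9 were not (2 of the 3 P301S mice came from the other line). Over all settings that could test them, the log2 fold change was 2.78 to 3.65 for Aoah, 4.00 to 7.26 for Cp and 4.60 to 5.40 for Ccr9. Without P301S mouse 3 none (0) of the 6 was called (1 other gene was, lower), though Cp and Ccr9 could not be tested there. DESeq2 called 3 genes, 1 of them among the 6 and 2 lower.

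Ttn, Aoah, Cp and Ccr9 were also higher in gate-negative nuclei of both active mice, as a description. There, Ttn stood at 98.2 and 192 CPM in the active mice and at 0 to 1.36 in P301S mice, Aoah at 237 and 282 against 1.75 to 28.7, Cp at 116 and 108 against 10.5 to 18.5, and Ccr9 at 36.6 and 62.6 against 1.36 to 2.53. Cntnap5c was not, at 43.7 and 83.5 CPM against 79.2 to 124. In the few nuclei past the gate of non-transgenic mice 2 and 4, Cntnap5c was at 672 and 650 CPM (39 and 36 UMIs). That was above the 157 and 266 CPM of DAM nuclei in the active mice. In non-transgenic mice 1 and 3 it had 0 and 1 UMI. Colec12, also on the border macrophage list, was at 20.5 and 64.5 CPM in gate-negative nuclei of the active mice against 4.09 to 20.2, and at 209 and 416 in their DAM nuclei. Several genes that were higher in DAM nuclei were lower in the active mice without passing the test. Ank in DAM nuclei differed by -1.79 ± 0.38 on the log2 scale between active and P301S mice (edgeR adjusted p = 0.078), March3 by -1.99 ± 0.49 (edgeR adjusted p = 0.175), Apoe by -1.09 ± 0.38 and Cd83 by -1.42 ± 0.39, while Fam20c stood at 0.65 ± 0.43. The median of the DAM list was -0.07 and that of the NF-κB targets 0.64, against 0.04 over all genes. Of 25 DAM list genes tested 1 was called, Colec12, which was higher (4%, against 0.0919% of all genes). Knockout and active contrasts share the P301S mice, so these values are not independent of each other.

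**Figure D5:**
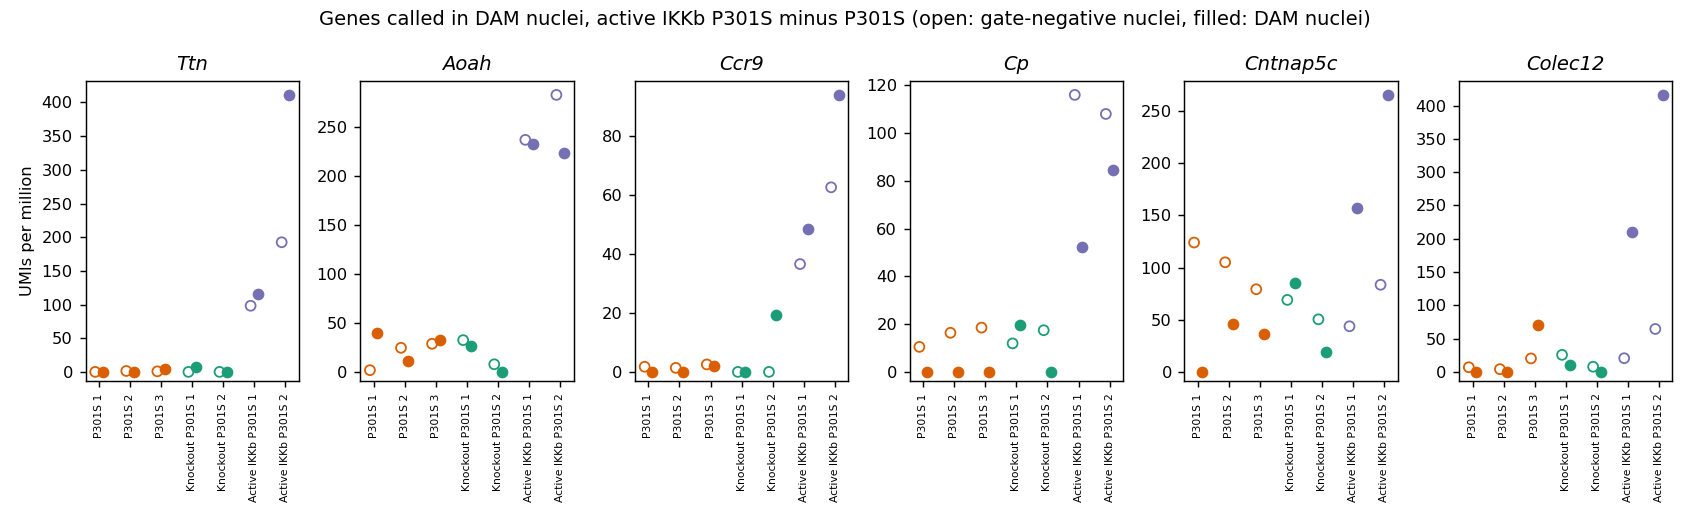
Level (UMIs scaled to 1e6, without TMM factors, linear axes) in DAM nuclei (filled) and gate-negative nuclei (open) of each P301S+ mouse for the 6 genes called between active IKKβ P301S and P301S mice. Ttn and Aoah were high in both active mice in both states, with gate-negative Ttn at 98.2 and 192 CPM against 0 to 1.36 in P301S mice.

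Whether the step from gate-negative to DAM nuclei itself differed between genotypes was tested as an interaction. Against P301S mice it differed for 4 of 9035 genes (0.0443%) in knockout and for 7 (0.0775%) in active mice, none (0) of them on the DAM, homeostatic or NF-κB lists. For Apoe the step differed by 0.43 ± 0.44 on the log2 scale in knockout mice and by -0.16 ± 0.42 in active mice, and for Fam20c by -0.17 ± 0.60 and 1.55 ± 0.51 (edgeR adjusted p = 0.612 for the last). Ank had -0.91 ± 0.43 and -1.12 ± 0.42, of which neither passed. Tmem119 had 0.07 ± 0.76 and 0.22 ± 0.59. None (0) of these 4 genes passed. With depth matching 0 genes were called in either contrast, and Tshz2, called in both, turned in sign.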

How the data were processed

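Single nuclei of frozen cortex were sorted by DAPI and sequenced with the 10x 3′ kit, version 3. The deposited files are raw UMI counts per gene and barcode, which the authors made with Cell Ranger 3.1.0 on mm10, counting unspliced RNA as well; per the labels' processing notes Seurat 3.0 was also used. Of 31053 genes, 30934 were matched by identifier to GENCODE M21 for coordinates. The study's doublet removal (DoubletFinder) was not run. Doublets were called with a nearest-neighbour method at a rate of 0.8% per 1000 barcodes and were kept, except in an alternative.

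Counts were summed per mouse over DAM nuclei and over gate-negative nuclei, since nuclei are not replicates. The sums were tested with edgeR 4.0.16 (R 4.3.3; quasi-likelihood test, TMM, filterByExpr), with the 15 genes of both gates left out. The limits for a call were a p under 0.05 after Benjamini-Hochberg adjustment and a log2 fold change beyond 0.1 either way. The comparison of states had mouse as a block, and that of genotypes had 1 term per genotype over the 7 P301S+ mice. Fold changes are given with standard errors. Shares were compared by exact permutation over mice (Python 3.11.15). The script was tested on simulated data. DAM sums held 25102 to 467890 UMIs in P301S+ mice, so a count of 0 or 1 is uncertain in the small ones. DESeq2 1.42.0, other size factors and gates, depth matching, and leaving out doublets, border macrophages, nuclei with oligodendrocyte transcripts or single mice were alternatives.

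The members and gene lists were chosen with earlier results of these data known. Named were the 14 largest rises and 10 largest falls among called genes that moved alike in all 7 mice with a mean of at least 50 CPM in the higher state, and, for genotypes, the 4 largest rises and falls with at least 50 CPM. Of each list, up to 6 called members and 3 tested but not called were taken by size or level. Ank, March3, Apoe, Fam20c, Cd83, Tmem119 and Ikbkb between genotypes, Cntnap5c and Colec12, and the list members named without values or beyond these numbers were chosen after their values were seen. Some genes that the rule names are not reported here. The numbers of P301S and knockout mice do not pair them.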

Additional observations from a re-analysis of the deposited data

Results flagged for a closer look

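The step from gate-negative to DAM nuclei differed between genotypes by the interaction test of edgeR for a few genes. In knockout against P301S mice the log2 difference of the step was 3.40 for Tshz2, a zinc finger factor of neurons, 3.38 for Lhfp, 2.34 for the neuronal adhesion gene Kirrel3 and 4.41 for Ccbe1. In active IKKβ against P301S mice it was 3.1 for Cntnap5c, 2.84 for Tshz2, 2.15 for Kirrel3, 3.00 for the non-coding Airn, 2.57 for Plcxd3, 3.06 for Pcsk5 and 2.50 for the muscarinic receptor Chrm2. Both contrasts share the P301S mice, so Tshz2 and Kirrel3 are not found in them independently. In the sums used for this test Tshz2 was at 31.6, 58.2 and 15.8 CPM in DAM nuclei of P301S mice 1 to 3, at 496 and 137 in knockout mice and at 43.3 and 316 in active mice, while gate-negative nuclei ranged from 20.4 to 230 in all 7 mice. Kirrel3 was at 284 to 606 CPM in DAM nuclei of P301S mice, below its level in gate-negative nuclei (670 to 1100), and at 602 to 1782 in those of the other mice, above it. The highest value came from the 5 DAM nuclei of knockout mouse 2, which also had the highest level of excitatory neuron markers. How far neuronal RNA takes part was not tested. Without knockout mouse 2, Ccbe1 and Kirrel3 were not called in the knockout contrast. With depth matching 0 genes were called in either contrast, and DESeq2 called 1 in the knockout and 0 in the active contrast. Cntnap5c was not called without doublets either, and its log2 difference was as low as 0.811 over the settings. Tshz2 turned to -0.40 and -0.68 with depth matching and to -0.81 and -0.69 without doublets, in the knockout and the active contrast.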

How the results depend on the processing

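Mice numbered alike did not deviate together (r = 0.0403 over 6531 genes, P301S and knockout mice of the floxed line), so the replicate block is given only here: the knockout difference in DAM share turned from -2.48 to 0.96 points and the genes called in DAM nuclei went from 0 to 1 for knockout and from 6 to 3 for active mice, and no block could be made for the active share, with 1 number in common. Leaving out 1 mouse each, the knockout share difference ran from -6.67 to 1.71 and the active from -0.91 to 5.35, at -0.65 without active mouse 2. The active share turned to -0.31 with thinning and -0.25 without border macrophages. The latter filter counts Colec12, which was itself called higher in DAM nuclei of active mice, so this turn is fixed in part by it.

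The count of 389 genes between states was 152 with depth matching, 643 with no filter on low counts, 223 on a gate without Myo1e (which leaves knockout mouse 2 with 0 nuclei) and 164 with depth matching and doublets, border macrophages and oligodendrocyte transcripts left out together (93 of them among the 389). It was 223 to 506 without 1 mouse, lowest without knockout mouse 1 and 236 without active mouse 2. Of 59 called genes named, 29 kept their call in every setting that could test them. C1qa turned to 0.0176 in the combined setting, and St18 to -0.32 and Mbp to -0.0397 without oligodendrocyte transcripts, a filter that counts both genes. In non-transgenic mice 57 genes became 0 with depth matching (50 at an unadjusted p under 0.05 by edgeR), 34 in DESeq2, 152 with no replicate block, 0 without oligodendrocyte transcripts and 20, 24, 37 and 143 without 1 mouse each. Without oligodendrocyte transcripts only 1 to 5 nuclei past the gate were left in each of these mice. Other size factors moved the median of all genes by 0.15 there.

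In DAM nuclei, the 0 genes of the knockout became 7 with no filter, 4 without doublets, 7 without oligodendrocyte transcripts and 0 to 159 without 1 mouse. The 6 genes of the active contrast became 3 in DESeq2 (2 of them lower), 32 with no filter, 12 on a gate of 2 UMIs, 43 without doublets, 1 with breeding line as a term, 23 without oligodendrocyte transcripts and 1 to 26 without 1 mouse, 13 of these without knockout mouse 2 and 1, not among the 6, without P301S mouse 3. The 4 genes whose step differed in the knockout became 1 in DESeq2, 7 with no filter, 0 with depth matching, 2 without doublets and 1 to 140 without 1 mouse (15 without P301S mouse 3), the highest in each knockout case without knockout mouse 1. The 7 of the active contrast became 0 in DESeq2, 3 with other size factors, 11 with no filter, 0 with depth matching, 4 without doublets, 3 without oligodendrocyte transcripts and 1 to 31 without 1 mouse. Tshz2 turned to -0.40 and -0.81 in the knockout, and to -0.68 and -0.69 in the active contrast, with depth matching and without doublets. The cause of these changes was not tested. Settings with oligodendrocyte transcripts left out, the combined setting, the gate without Myo1e and Csf1 and the use of only mice with at least 20 DAM nuclei were chosen after seeing the data.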
